A study of Mus musculus with 36 samples.

Results

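The response of the liver to immune checkpoint blockade was set against that of the kidney, gene by gene. The 12 liver and kidney libraries of a series of 36 were used, with 3 libraries for each tissue and treatment. For each gene the difference between blockade and control in kidney was subtracted from that in liver. A gene was included when its FPKM (fragments per kilobase of gene, scaled to library size) reached 1 or more in no fewer than 3 of the 6 libraries, in liver as well as in kidney. Of 18760 named genes 11257 met this in liver and 11901 in kidney, and the 10123 genes that met it in both were compared. Another 1134 genes passed in liver alone and 1778 in kidney alone, and no difference between the tissues was computed for these.

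All mice were wild-type C57BL/6 animals that carried tumors of MC38, a colon carcinoma line of the same species. The treated group received a high dose of antibodies against PD-1 and CTLA-4 (hereafter ICB), and the control group received IgG. The groups were matched by age and sex, and their age and sex and the time of sampling were not stated in the labels. RNA was taken from frozen pieces of whole organ and sequenced in bulk.

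PD-1 and CTLA-4 are receptors that restrain T cells, and antibodies that block them can cause inflammation in organs other than the tumor, liver and kidney among them. The liver is made mostly of hepatocytes, which secrete plasma proteins and burn and make fat, and it holds a large resident macrophage population, the Kupffer cells. The kidney is made mostly of tubule epithelium that reabsorbs filtered solutes with energy from mitochondria. In both organs PPAR-alpha is a nuclear receptor that switches on genes of fatty acid oxidation.

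The tissue labels matched the defining markers. Alb, the serum albumin gene of hepatocytes, stood at 34890 to 58780 FPKM in liver and at 1.85 to 7.15 FPKM in kidney, and Slc34a1, the phosphate carrier of the proximal tubule, at 1220 to 1922 FPKM in kidney and at most 0.0589 FPKM in liver. Between 19012992 and 25235617 reads per library were recovered from the deposited values. Reads of mitochondrial genes made up 4.10% to 5.71% of the total in liver and 8.42% to 10.5% in kidney. Whether each library of a group stands for its own animal is not stated, so p-values measure the spread between these libraries, which may be partly technical. In whole organs, fewer cells of a type and less RNA per cell cannot be told apart.

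A pair of libraries stood apart within their group for macrophage markers and touches many values below. Liver ICB replicate 2 was close to the controls for macrophage markers, with a median of 0.02 log2 units over the IgG mean, against 1.47 and 1.65 in liver ICB replicates 1 and 3. Kidney ICB replicate 2, whose title carries the same number, had a median of 0.03, against 0.98 and 0.97 in the other kidney ICB libraries. Liver ICB replicate 2 also received the lowest weight of the 12 libraries (0.219) when limma estimated library weights, followed by liver ICB replicate 1 (0.370). Kidney ICB replicate 2 did not have a low weight (1.27, against 1.32 in kidney ICB replicate 1 and 4.44 in replicate 3). Values without it are given where it moved the printed median of a list between tissues, or the printed difference of a gene between tissues, by over 1.5 times.

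No gene passed for the difference between the tissues. With limma on log2(FPKM + 1) over the 12 libraries, 0 of 10123 genes (0%) had an adjusted p under 0.05, and the smallest adjusted p was 0.939. At an unadjusted p under 0.05 there were 282 genes (2.79%), fewer than the 506.2 that this threshold gives on average without any difference. On the recovered reads limma-voom gave 0 calls and 292 genes at an unadjusted p under 0.05. The limma count depended on the setting. It was 158 (1.56%) without kidney IgG replicate 2 and 693 (6.85%) with libraries of the same title number as a block. Without liver ICB replicate 2 it was 1536 (15.2%), and with the library weights 1806 (17.8%). Within the tissues, limma called 0 genes in liver (0%; 764 genes or 7.55% at an unadjusted p under 0.05, and limma-voom called 1, Lpl) and 2 genes in kidney (0.0198%; 109 genes or 1.08% at an unadjusted p under 0.05). Without liver ICB replicate 2, 6 genes passed for the difference between tissues and 298 for liver. Of the gene lists described below, mt-Nd3 in kidney was the 1 member that passed in any of the 3 comparisons of the 12-library fit. The differences on this scale understate the change of genes with low FPKM.

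The ICB differences of the tissues were nearly uncorrelated across all genes, though some lists described below rose in both. Their Pearson correlation was 0.0396 over the 10123 genes, which are not independent replicates. The differences ran with gene length in opposite directions (Spearman correlation -0.31 in liver and 0.38 in kidney). The part of gene length in the low correlation was not tested. The median difference was -0.03 in liver and -0.02 in kidney, and 44.4% and 44% of genes were above 0 and 55.6% and 56% below. For the difference between tissues 50% lay on each side. Rescaling every library to the same FPKM sum (the TPM scale) moved the median of the difference between tissues from 0.00 to -0.11, and changes of that size are read against this shift.

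**Figure D1:**
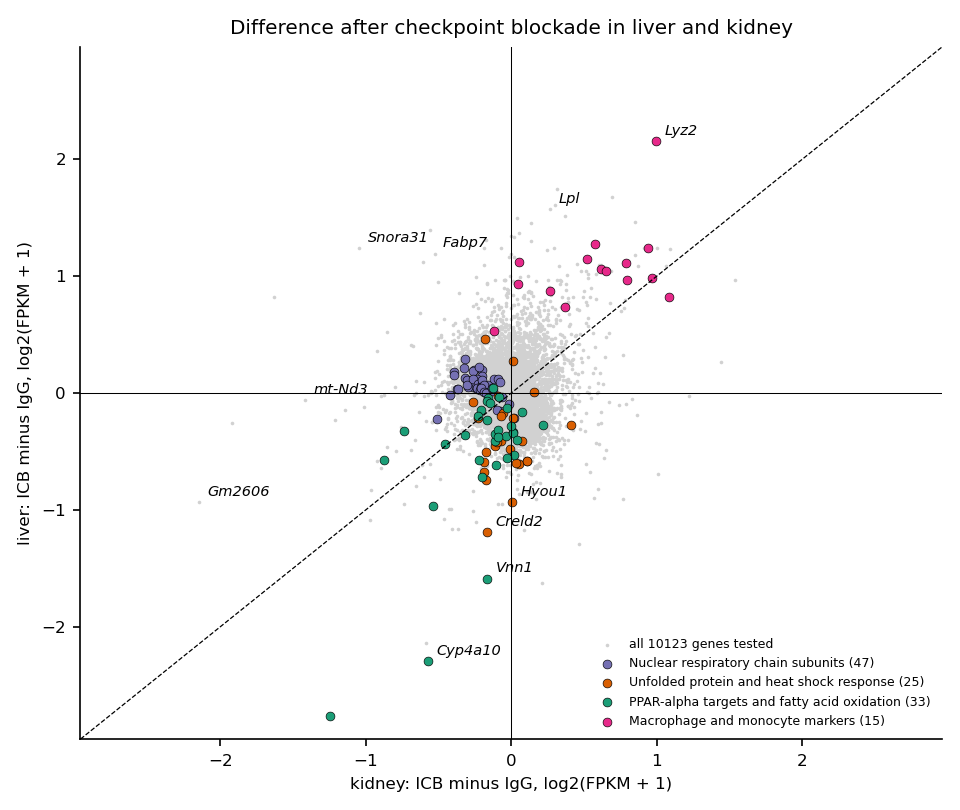
Each point is 1 of the 10123 genes, with the ICB minus IgG difference of log2(FPKM + 1) in kidney on the horizontal and in liver on the vertical axis; 4 gene lists are coloured and the dashed line marks equal differences. Most chaperone genes (20 of 25) and PPAR-alpha targets (23 of 33) lie below the dashed line. Most macrophage markers lie to the upper right, and most respiratory chain subunits lie left of 0.

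Chaperones of the endoplasmic reticulum (ER) were lower with ICB in liver and close to the control level in kidney. These proteins fold and quality-check secreted proteins, and many of their genes are switched on by the unfolded protein response. For some of them this runs through the ER stress response element of their promoters. The element, searched here as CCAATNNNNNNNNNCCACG on both strands in the 250 bases before the gene start, was found in 37 of 32851 RefSeq promoters (0.113%). Of the 25 tested genes of the list of unfolded protein and heat shock genes, 21 had a promoter in the RefSeq table and 5 of these held it: Hspa5, Hsp90b1, Pdia6, Dnajc3 and Creld2. A match is a run of letters and no evidence of binding. The promoters of 4 of these genes are printed 5′ to 3′ on the strand of the gene (GRCm38.p6), because their transcripts were lower in every liver ICB library than in any liver IgG library, with the CCAAT and CCACG ends of each match, or their reverse complements, in capitals. They lie at chr15:88819396-88819645 (Creld2, plus strand), chr14:118937682-118937931 (Dnajc3, plus strand), chr2:34771840-34772089 (Hspa5, plus strand) and chr10:86705445-86705694 (Hsp90b1, minus strand).
Creld2: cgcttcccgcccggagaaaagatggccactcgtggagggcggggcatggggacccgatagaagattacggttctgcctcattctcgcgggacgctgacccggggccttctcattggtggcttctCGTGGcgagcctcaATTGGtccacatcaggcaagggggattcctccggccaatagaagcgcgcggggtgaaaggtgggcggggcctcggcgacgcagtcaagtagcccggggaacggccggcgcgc
Dnajc3: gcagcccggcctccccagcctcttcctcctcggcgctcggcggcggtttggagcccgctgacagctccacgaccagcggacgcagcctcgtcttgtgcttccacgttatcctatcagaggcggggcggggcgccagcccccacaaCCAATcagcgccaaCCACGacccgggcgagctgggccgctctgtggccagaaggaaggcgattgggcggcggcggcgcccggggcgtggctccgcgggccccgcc
Hspa5: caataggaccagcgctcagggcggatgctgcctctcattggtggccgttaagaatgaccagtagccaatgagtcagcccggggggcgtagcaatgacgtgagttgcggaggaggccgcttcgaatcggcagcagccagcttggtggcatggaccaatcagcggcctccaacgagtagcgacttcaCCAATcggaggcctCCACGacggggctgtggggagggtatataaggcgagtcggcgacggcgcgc
Hsp90b1: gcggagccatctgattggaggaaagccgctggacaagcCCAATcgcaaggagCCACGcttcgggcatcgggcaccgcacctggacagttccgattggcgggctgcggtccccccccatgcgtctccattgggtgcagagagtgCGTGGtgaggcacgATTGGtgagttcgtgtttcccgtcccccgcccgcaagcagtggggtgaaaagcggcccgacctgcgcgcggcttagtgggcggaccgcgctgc
The match runs with the gene in Dnajc3 and Hspa5 and against it in Creld2, and Hsp90b1 holds 1 match in each orientation.

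Creld2, an ER-stress-induced protein of the ER lumen, was at 131.4, 60.8 and 74.5 FPKM in the liver IgG libraries and at 35.97, 37.6 and 35.5 FPKM in the ICB libraries. Its kidney libraries lay between 19.4 and 24.5 FPKM with IgG and at 28.0, 13.9 and 19.5 FPKM with ICB. The liver groups did not overlap, the kidney groups did, and the difference between tissues was -1.02 ± 0.39 (log2, SE, n = 3 libraries per group, as for all differences below). Hyou1, an ER chaperone that helps the HSP70 of this compartment release its nucleotide (chromosome 9, 44379490 to 44392369), was at 113.8, 63.1 and 80.9 FPKM with IgG and at 42.2, 52.3 and 36.6 FPKM with ICB in liver. Its 6 kidney libraries lay between 19.3 and 24.5 FPKM in both groups, and the difference between tissues was -0.94 ± 0.28. Dnajc3, a co-chaperone that also inhibits the stress kinase PERK, was at 154.4, 98.6 and 126.5 FPKM with IgG and at 94.3, 89.2 and 64.2 FPKM with ICB in liver, with a difference between tissues of -0.66 ± 0.26. Hspa5 encodes BiP, the main HSP70 of the ER. It was at 594.0, 301.4 and 399.7 FPKM with IgG and at 225.2, 288.0 and 233.3 FPKM with ICB in liver, and at 92.4 to 146.6 FPKM over the kidney libraries, where the groups overlapped. Hsp90b1, the HSP90 of the ER, was at 358.9, 209.9 and 274.0 FPKM with IgG and at 184.0, 203.7 and 190.5 FPKM with ICB in liver. Edem1, which sends misfolded glycoproteins to degradation, had a difference of -0.41 in liver and 0.07 in kidney.

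Over the list, 22 of 25 genes were lower with ICB in liver (median -0.42) and 15 of 25 in kidney (median -0.07, which turned positive on the TPM scale, after quantile normalization and without kidney ICB replicate 2). The difference between tissues was below 0 for 20 of 25 genes, with a median of -0.34 against 0.00 over all genes, and none passed. At an unadjusted p under 0.05 there were 6 genes for the difference between tissues, 11 in liver and 0 in kidney, beside 2.79%, 7.55% and 1.08% of all genes. In liver 11 of the 25 had all ICB libraries under all IgG libraries, against 3.74% of all genes, and in kidney 0 did, against 5.29%. The median of the list in the liver ICB libraries was -0.31, -0.43 and -0.52, so liver ICB replicate 2 lay with its group here. The exceptions included Ddit3, the stress-induced transcription factor CHOP, at 3.16, 3.85 and 3.22 FPKM with IgG and 7.25, 3.14 and 5.57 FPKM with ICB in liver. Cytosolic members were also lower in liver, with differences of -0.48 for the co-chaperone Bag3 and -0.58 for the HSP110 gene Hsph1, against -0.01 and 0.11 in kidney. Outside the list, Lrrc59, an ER membrane protein, and Hspa13, an HSP70 relative of the ER, were among the 10 genes with the smallest p below 0 (-0.82 ± 0.21 and -0.75 ± 0.24). Liver IgG replicate 1 held the highest level of Creld2, Hyou1, Hspa5 and Hsp90b1. Without it the list's median was -0.26 and Creld2 was at -0.71. The hepatocyte identity genes had medians of 0.01 in liver and 0.02 in kidney over 10 tested genes. Of 20 such genes in the table only these 10 passed the filter in both tissues, so the medians do not cover the others.

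**Figure D2:**
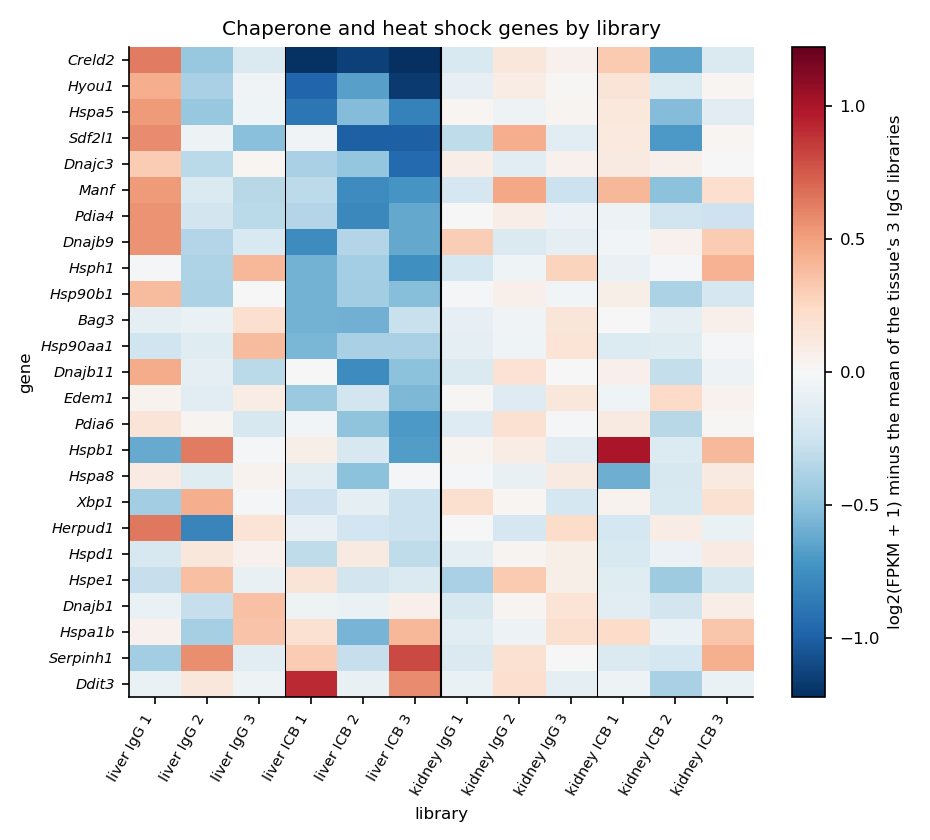
Rows are the 25 tested unfolded protein and heat shock genes and columns the 12 libraries; colour gives log2(FPKM + 1) minus the mean of the 3 IgG libraries of the same tissue. The upper rows are blue in all 3 liver ICB libraries and pale in kidney, and liver IgG replicate 1 is red in many of them.

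Genes of fatty acid use also lay further below control with ICB in liver than in kidney by their median, and none passed for the difference between tissues. Vnn1, a pantetheinase and PPAR-alpha target (chromosome 10, 23894688 to 23905343), was at 18.7, 22.6 and 17.3 FPKM with IgG and at 4.58, 9.75 and 4.20 FPKM with ICB in liver. In kidney it was at 62.7, 67.6 and 63.2 FPKM with IgG and at 68.8, 48.8 and 56.4 FPKM with ICB. The liver groups were apart and the kidney groups overlapped. The difference between tissues was -1.42 ± 0.34, the smallest p below 0, with a limma adjusted p of 0.939 that became 0.0252 without liver ICB replicate 2 (difference -1.76). Cyp4a10, a fatty acid omega-hydroxylase that shares 29.8% of its 50-base words with Cyp4a32 and Cyp4a31, was at 335.0, 612.8 and 294.9 FPKM with IgG and at 58.5, 271.0 and 31.0 FPKM with ICB in liver. Its kidney groups overlapped, from 131.2 to 395.5 FPKM, and the difference between tissues was -1.72 ± 0.91, which became -2.60 without liver ICB replicate 2 and -1.06 without liver ICB replicate 3.

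Over the list of PPAR-alpha targets and fatty acid oxidation, 32 of 33 tested genes were lower with ICB in liver (median -0.35) and 26 of 33 in kidney (median -0.12). The difference between tissues was below 0 for 23 of 33 genes, with a median of -0.28, between -0.41 and -0.28 under the scaling alternatives and -0.19 without liver IgG replicate 1. In liver 10 genes had an unadjusted p under 0.05, against 7.55% of all genes, and 9 had groups that did not overlap, lower with ICB, against 3.74%. At an unadjusted p under 0.05 there was 1 gene for the difference between tissues and 1 in kidney, against 2.79% and 1.08% of all genes. The median of the list in liver was -0.48, -0.09 and -0.55 in the ICB replicates 1 to 3. Fatty acid synthesis genes had a median difference between tissues of -0.33 (13 of 17 below 0; -0.31 in liver, -0.04 in kidney, the latter above 0 on the TPM scale and without kidney ICB replicate 1). Single liver libraries moved these medians, to -0.09 between tissues and -0.06 in liver without ICB replicate 1, and to -0.51 and -0.60 without IgG replicate 1. The exception with the smallest p was Scd2, a stearoyl-CoA desaturase, at 2.39, 3.54 and 2.72 FPKM with IgG and 5.34, 3.47 and 7.98 FPKM with ICB in liver. Cholesterol synthesis genes lay the other way, with 15 of 23 above 0 (median 0.15; -0.08 in liver, -0.19 in kidney), and the median between tissues was 0.04 without liver IgG replicate 1 and 0.36 without liver IgG replicate 2. Among them Msmo1, a sterol methyl oxidase, was at 5.95, 6.99 and 5.45 FPKM with IgG and at 4.21, 4.75 and 5.32 FPKM with ICB in kidney, with a difference between tissues of 0.68 ± 0.23.

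Lpl, lipoprotein lipase, which frees fatty acids from circulating lipoproteins (chromosome 8, 68880491 to 68907448), was the gene with the smallest p in liver and lay in the opposite direction. It was at 2.71, 5.12 and 3.88 FPKM with IgG and at 11.2, 11.1 and 18.7 FPKM with ICB in liver, and at 40.2, 42.1 and 44.0 against 59.6, 43.9 and 50.4 FPKM in kidney. The liver groups were apart with all 3 ICB libraries high, and the kidney groups overlapped. The difference was 1.57 ± 0.22 in liver (limma adjusted p = 0.109), 0.27 in kidney and 1.30 ± 0.31 between tissues. The adipocyte list, which holds Lpl itself, had medians of 0.26 in liver (0.12 without liver ICB replicate 2) and 0.31 in kidney over 7 tested genes, and the sum of the 16 adipocyte genes in the table was 126.1 to 286.4 FPKM in liver IgG and 122.8 to 529.3 FPKM in liver ICB libraries. The defining adipocyte genes Adipoq, Plin1, Retn and Lep were listed at 0 in all liver libraries. The part of adipocyte genes in the Lpl result was not tested. Slc26a10, a solute carrier gene whose exons overlap B4galnt1 on the other strand, was at 0.257, 0.507 and 0.372 FPKM with IgG and 5.04, 1.73 and 2.24 FPKM with ICB in liver, and had a difference between tissues of 1.32 ± 0.34. Gmpr, guanosine monophosphate reductase, had 0.82 ± 0.21, and Fabp7, a fatty acid binding protein, 1.72 ± 0.42. For Fabp7 the liver ICB libraries lay above every liver IgG library. Gmpr and Slc26a10 reached 1 FPKM in liver only in the 3 ICB libraries. The filter thus fixed in advance that the liver groups of Gmpr and Slc26a10 did not overlap.

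**Figure D3:**
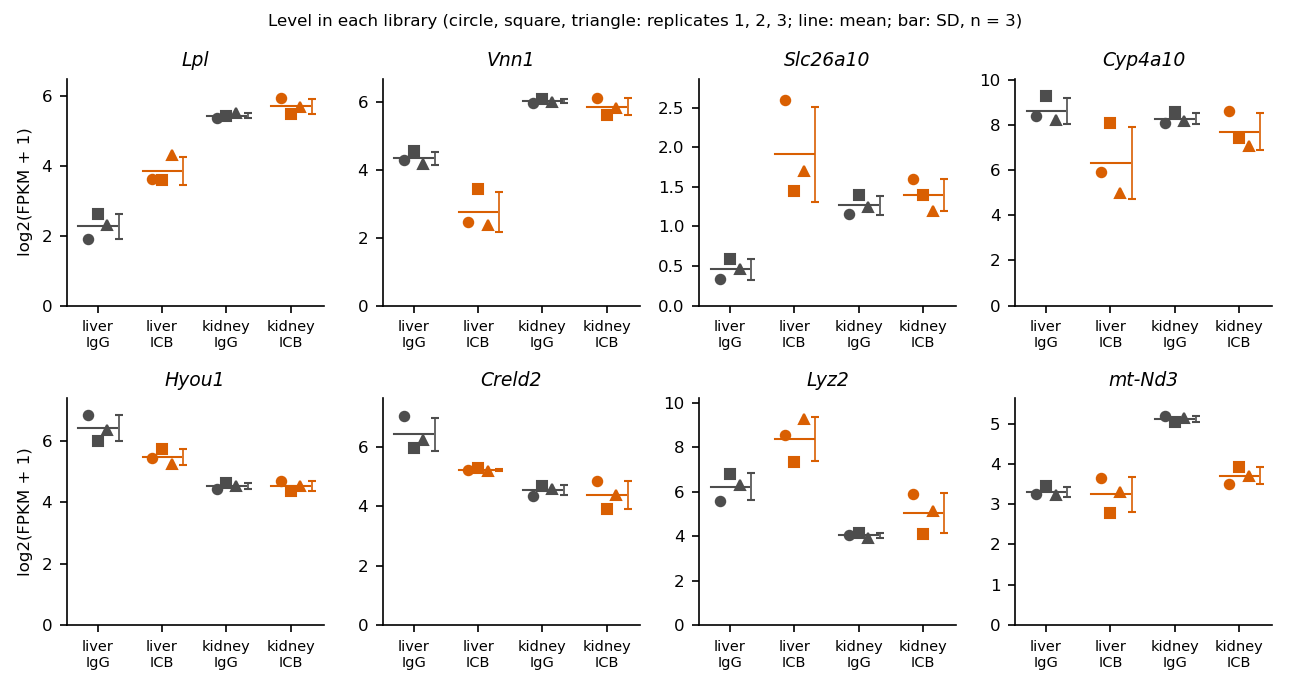
Level of 8 genes in each of the 12 libraries as log2(FPKM + 1), with the mean and SD of each group of 3. In liver the ICB libraries lie above the IgG libraries for Lpl, Slc26a10 and Lyz2 and below them for Vnn1, Cyp4a10, Hyou1 and Creld2, and mt-Nd3 separates the kidney groups only. Slc26a10 passed the filter in liver only through its ICB libraries.

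Macrophage markers and genes of MHC class II, which presents antigen, were mostly higher with ICB in both tissues. Lyz2, the lysozyme of macrophages and granulocytes, was at 46.7, 108.7 and 78.7 FPKM with IgG and at 374.8, 158.9 and 614.1 FPKM with ICB in liver. In kidney it was at 15.7, 16.6 and 14.03 FPKM with IgG and at 57.8, 16.1 and 33.9 FPKM with ICB. The liver groups were apart, with replicate 2 the lowest of the ICB libraries in both tissues, and the difference between tissues was 1.16 ± 0.71 (1.69 without liver ICB replicate 2 and 0.69 without kidney ICB replicate 2). Of 15 tested macrophage and monocyte markers all were above 0 in liver (median 1.04; 14 at an unadjusted p under 0.05, against 7.55% of all genes) and 14 in kidney (median 0.61; 5 at an unadjusted p under 0.05, against 1.08%). The liver median was 1.54 without liver ICB replicate 2, and the kidney median 0.97 without kidney ICB replicate 2. The groups did not overlap for 3 of them in liver, against 2.99% of all genes higher with ICB, and for 5 in kidney, against 3.22%. The difference between tissues was above 0 for 14 of 15, with a median of 0.45 and 0 genes at an unadjusted p under 0.05. That median was 0.96 without liver ICB replicate 2, 0.22 without kidney ICB replicate 2 and 0.67 without both. The exception was Mpeg1, the pore-forming perforin-2 of macrophages, with 0.83 in liver and 1.08 in kidney.

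All 7 tested genes of MHC class II and its loading were above 0 in both tissues, with medians of 1.07 in liver and 0.65 in kidney. Cd74, the invariant chain, was at 17.8, 66.8 and 55.9 FPKM with IgG and at 93.6, 82.6 and 120.0 FPKM with ICB in liver, and at 74.5, 84.7 and 101.7 against 149.9, 128.3 and 224.7 FPKM in kidney. The groups did not overlap in either tissue. The median difference between tissues was 0.33, with all 7 above 0, and became 0.55 without liver ICB replicate 2 and -0.04 without liver IgG replicate 1, which had the lowest level of the list (-0.92). The liver median was 0.64 without liver IgG replicate 1 and the kidney median 0.36 without kidney ICB replicate 3. Interferon-gamma response genes had medians of 0.31 in liver and 0.13 in kidney (16 of 21 above 0 between tissues, median 0.15), and this was 0.23 without liver ICB replicate 2 and also turned to -0.08 without liver IgG replicate 1. Type I interferon genes had medians of 0.18 in liver and -0.03 in kidney (the latter above 0 on the TPM scale), with 12 of 21 above 0 between tissues, and the median of 0.16 between tissues became 0.28 without liver ICB replicate 2 and -0.29 without liver IgG replicate 1. Cd274, the PD-1 ligand, was at 0.472, 1.53 and 1.07 FPKM with IgG and at 2.33, 1.48 and 2.90 FPKM with ICB in liver, and its 6 kidney libraries lay between 0.881 and 1.51 FPKM. Transcripts of the antibody targets were near 0. Pdcd1 was at most 0.235 FPKM in liver and 0.169 FPKM in kidney, Ctla4 was above 0 in 1 liver library (0.156 FPKM), and Cd8a, Foxp3 and Cxcl9 were under the filter in at least 1 of the tissues.

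The genes that passed for the difference between tissues without liver ICB replicate 2 were looked at after their values were seen. Higher in liver were Slamf9, a receptor of the SLAM family (difference 1.90, limma adjusted p = 0.00961), Cxcl16, a chemokine (1.76, adjusted p = 0.0398), Cyba, a subunit of the phagocyte NADPH oxidase (2.08, adjusted p = 0.041), and Metrnl, a secreted protein (1.65, adjusted p = 0.0398). With all 12 libraries these were 1.45, 1.31, 1.48 and 1.24, with an adjusted p of 0.939 each. Kidney ICB replicate 2, also low for macrophage markers, stayed in that fit. With replicate 2 left out of the ICB groups of both tissues, Slamf9 still passed (1.90). Cxcl16, Cyba and Metrnl then did not pass (1.70, 2.04 and 1.55). Cyba was at 19.01, 33.01 and 21.2 FPKM with IgG and at 83.2, 25.9 and 100.3 FPKM with ICB in liver, and at 360.2 to 501.9 FPKM in kidney. Liver ICB replicate 2 lay among the controls for Cyba and just above them for Cxcl16 (4.15 against at most 4.12 FPKM). Hmox1, heme oxygenase, had the same shape, at 60.5, 17.6 and 59.8 FPKM with ICB against 14.8 to 21.2 FPKM with IgG in liver, and its kidney libraries overlapped between 7.55 and 13.7 FPKM.

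Subunits of the mitochondrial respiratory chain that are encoded in the nucleus were lower with ICB in kidney and close to the control level in liver. In kidney 46 of 47 tested subunits were below 0 (median -0.22, and -0.20 to -0.10 under the scaling alternatives) and 11 had groups that did not overlap, against 5.29% of all genes lower with ICB. At an unadjusted p under 0.05 there were 0 subunits in kidney and 0 in liver, against 1.08% and 7.55% of all genes. In liver 38 of 47 were above 0 (median 0.07). The difference between tissues was above 0 for 42 of 47 (median 0.30, and 0.16 to 0.31 under the scaling alternatives), with 0 genes at an unadjusted p under 0.05. Without liver ICB replicate 1 that median was 0.13 and the liver median -0.07, and without kidney IgG replicate 2 the kidney median was -0.09. Cox6c, a subunit of cytochrome c oxidase, was at 75.7, 98.9 and 91.4 FPKM with IgG and at 72.8, 60.6 and 67.9 FPKM with ICB in kidney. In liver it was at 63.9, 71.7 and 55.9 against 98.7, 61.5 and 61.5 FPKM, where ICB replicate 1 alone was high. The difference between tissues was 0.57 ± 0.27, and 0.35 without liver ICB replicate 1.

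These subunits are short genes, and library deviations moved with gene length. Across the 10123 genes the Spearman correlation of gene length with the difference between tissues was -0.43, with -0.31 for liver and 0.38 for kidney, given here as a description. For single libraries it ran from -0.57 in kidney IgG replicate 2 to 0.50 in kidney ICB replicate 2, and it differed in sign within each of the 4 groups. With the length trend of each library removed, a step added after the data were seen, the median of the respiratory subunits was 0.12 between tissues (34 of 47 above 0), 0.00 in liver and -0.12 in kidney. The chaperone list kept a median of -0.34 and the macrophage list 0.37. The part of length in the remaining differences was not tested.

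**Figure D4:**
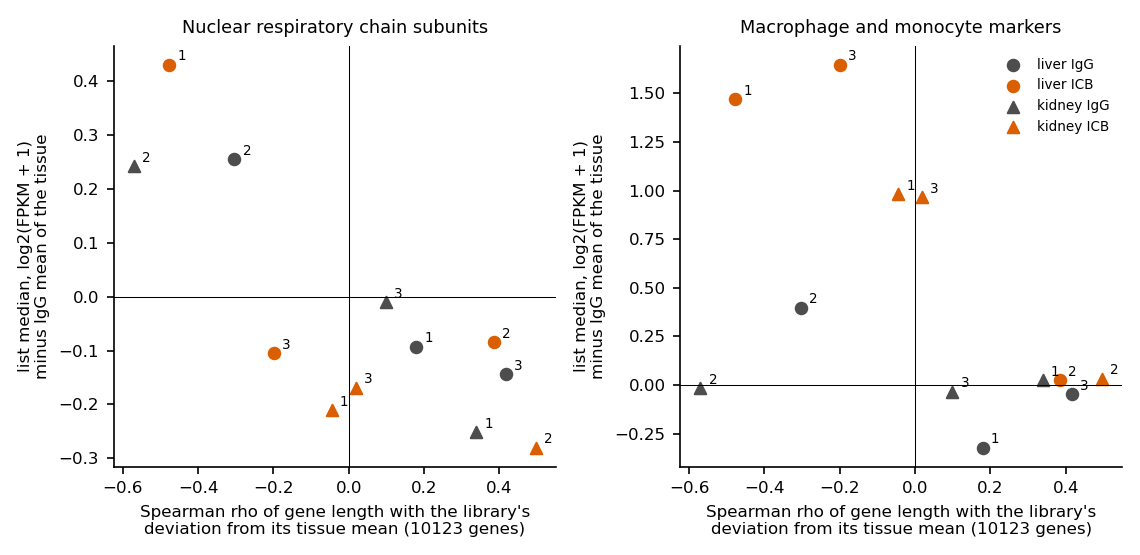
Each point is 1 of the 12 libraries, numbered by replicate; the horizontal axis gives the Spearman correlation of gene length with the library's deviation from its tissue mean, and the vertical axis the median of a gene list as log2(FPKM + 1) minus the IgG mean of the tissue. The respiratory chain list is above the IgG mean in the libraries with the 3 most negative correlations (liver ICB replicate 1, liver IgG replicate 2 and kidney IgG replicate 2) and below it in the other 9, and the macrophage list is high in ICB replicates 1 and 3 of both tissues.

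Among the 15 mitochondrially encoded genes, 11 were above 0 between tissues (median 0.25, 0.02 with the length trend removed, 0.05 without liver ICB replicate 1 and 0.46 without liver ICB replicate 2). mt-Nd3, a complex I subunit (mitochondrial genome, 9459 to 9806), had the smallest p of all genes. It was at 35.5, 32.1 and 34.0 FPKM with IgG and 10.3, 14.2 and 11.9 FPKM with ICB in kidney, and at 8.46, 9.90 and 8.29 against 11.5, 5.85 and 8.93 FPKM in liver. It fell by 1.42 ± 0.19 in kidney (limma adjusted p = 0.0459), its liver groups overlapped, and the difference between tissues was 1.36 ± 0.27. The kidney call was lost with a pseudocount of 0.1, without the filter, with median-of-ratios and quantile scaling, in the fit of 36 libraries, with the length trend removed, with the title number as a block and without any 1 of the 6 kidney libraries. It was also lost without any 1 of the liver IgG libraries or without liver ICB replicate 3, which enter through the shared estimate of the spread. Of its 50-base words 98% also occur in Gm28438, so that reads of the copies could have been split. Its neighbours in the mitochondrial genome varied widely within groups. mt-Nd4l, for example, was at 1353, 301.9 and 1212 FPKM in the kidney IgG libraries and at 769.8, 1617 and 444.3 FPKM with ICB.

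Extracellular matrix genes were higher with ICB in kidney. All 21 tested genes were above 0 there (median 0.34) and 13 of 21 in liver (median 0.06), and the difference between tissues was below 0 for 18 of 21 (median -0.28). This median was -0.47 without kidney IgG replicate 3 and -0.21 without kidney ICB replicate 3. Over all alternatives the medians ran from -0.47 to -0.07 between tissues, from -0.12 to 0.34 in liver and from 0.25 to 0.48 in kidney. In kidney 5 had groups that did not overlap, higher with ICB, against 3.22% of all genes, and 4 had an unadjusted p under 0.05, against 1.08%. Col6a1, a chain of collagen VI, was at 5.06, 3.71 and 5.603 FPKM with IgG and at 6.81, 6.51 and 9.42 FPKM with ICB in kidney, and had 0.57 in kidney and 0.17 in liver. Fn1, fibronectin, which hepatocytes secrete into plasma, led the list between tissues (-1.21 ± 0.46), with liver levels of 693.5, 310.6 and 460.3 FPKM with IgG and 243.2, 408.1 and 245.0 FPKM with ICB that overlapped. With the length trend of each library removed, the difference between tissues was -1.04 for Fn1 and -0.35 for Col6a1 (-0.39 in the main fit). Endothelial markers were above 0 for 15 of 15 in liver (median 0.27) and 12 of 15 in kidney (median 0.22). Between tissues their median was 0.10, and it turned to -0.03 on the TPM scale and -0.02 without liver ICB replicate 3, and was 0.24 without liver ICB replicate 2.

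Cell cycle genes were above 0 between tissues for 13 of 14 (median 0.41), with medians of 0.33 in liver and -0.02 in kidney, where the sign turned under the median-of-ratios and TPM scalings. Tk1, the thymidine kinase of dividing cells, was at 4.48, 5.52 and 5.09 FPKM with IgG and at 9.28, 7.79 and 8.53 FPKM with ICB in liver. In kidney all libraries lay between 1.42 and 2.12 FPKM, and the difference between tissues was 0.72 ± 0.18. The list's median in liver ICB replicate 3 was 0.90, against -0.13 and 0.12 in replicates 1 and 2, and without replicate 3 the median between tissues was 0.11. Erythroid genes were below 0 for 8 of 8 in kidney (median -0.86) and for 6 of 8 in liver (median -0.13, which became -0.64 without liver IgG replicate 3 and 0.17 without liver ICB replicate 2). The kidney median was -0.57 without kidney IgG replicate 3. Hbb-bs, an adult beta-globin that shares 53.2% of its 50-base words with Hbb-bt, was at 225.4, 232.4 and 302.7 FPKM with IgG and at 96.0, 141.4 and 106.9 FPKM with ICB in kidney. In liver it overlapped, from 58.8 to 310.5 FPKM, and its difference between tissues was 0.99 ± 0.83, which became 0.22 without liver IgG replicate 3 and 1.55 without liver ICB replicate 2.

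Acute phase genes, which hepatocytes make in inflammation, had a median of -0.26 in liver and 0.23 in kidney, with 10 of 12 below 0 between tissues (median -0.46). Of 27 acute phase genes in the table only these 12 passed the filter in both tissues, so the medians do not cover the others. Without liver ICB replicate 2 the liver median was 0.15 and that between tissues -0.16. Without kidney ICB replicate 1 the kidney median was 0.00 and that between tissues -0.13, and without kidney IgG replicate 1 the median between tissues was -0.82. C3, complement component C3, was at 7711, 4770 and 7283 FPKM with IgG and at 4756, 4605 and 4471 FPKM with ICB in liver, and overlapped in kidney from 6.14 to 46.4 FPKM. Glucocorticoid-responsive genes were below 0 between tissues for 13 of 15 (median -0.29), and the median turned positive without liver IgG replicate 1 (0.06) or liver ICB replicate 3, and was -0.12 without liver ICB replicate 2. Liver IgG replicate 1 had 88.1 FPKM of Ddit4, an inhibitor of mTOR signalling, against 9.87 and 36.4 FPKM in the other liver controls. Circadian clock genes had a median of -0.13 between tissues (13 of 18 below 0) and conjugation and antioxidant genes 0.18 (21 of 34 above 0), and these medians changed sign without 1 library (liver ICB replicate 3 or kidney IgG replicate 2 for the clock, liver IgG replicate 1 for conjugation). Without liver ICB replicate 2 they were -0.34 for the clock and 0.02 for conjugation.

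Genes were also counted whose groups did not overlap in either tissue and lay in opposite directions. In 16 of 10123 genes (0.158%) every ICB library lay above every IgG library in liver and below every IgG library in kidney, and in 7 (0.0691%) the reverse held. Within liver alone the groups did not overlap for 2.99% of all genes with ICB higher and 3.74% with ICB lower. Within kidney alone these shares were 3.22% and 5.29%. Thap11, a zinc finger transcription factor, was at 12.2, 13.1 and 12.8 FPKM with IgG and at 15.6, 16.6 and 16.3 FPKM with ICB in liver, and at 13.1, 14.2 and 14.9 against 11.9, 12.1 and 11.3 FPKM in kidney. Its groups were apart in both tissues, with liver replicate 2 inside its group, and the difference between tissues was 0.56 ± 0.14. Slc16a1, a lactate and ketone transporter of the cell membrane, lay the other way. It was at 17.3, 16.0 and 15.2 FPKM with IgG and at 10.5, 14.5 and 12.1 FPKM with ICB in liver, and at 5.08, 4.27 and 4.40 against 6.95, 5.26 and 5.37 FPKM in kidney, with a difference between tissues of -0.66 ± 0.20. Rpa3, a subunit of the single-strand DNA binding complex, had 0.53 in liver and -0.36 in kidney, where its groups overlapped.

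Without overlap in either tissue, 37 genes (0.366%) were higher and 21 (0.207%) lower with ICB in both. Itgb2, the beta chain of leukocyte integrins, was at 5.04, 5.94 and 5.75 FPKM with IgG and 15.7, 8.70 and 21.7 FPKM with ICB in liver, and at 1.44, 0.911 and 1.54 against 6.96, 1.93 and 3.87 FPKM in kidney. Clec7a, the beta-glucan receptor dectin-1 of myeloid cells, had 1.18 ± 0.26 in liver and 0.85 in kidney. In kidney it reached 1 FPKM only in the ICB libraries, so the filter fixed in advance that its kidney groups did not overlap. Gm2606, a processed pseudogene on chromosome 15 (12574889 to 12575890), fell by 2.15 in kidney (limma adjusted p = 0.0459), from 9.13, 9.09 and 8.68 FPKM to 0.834, 1.38 and 1.60 FPKM. The call was lost with a pseudocount of 0.1, without the filter, with median-of-ratios or quantile scaling within tissue, in the fit of 36 libraries, with the length trend removed and without any 1 of the 6 kidney libraries. It was also lost without liver IgG replicate 2, liver ICB replicate 1 or liver ICB replicate 3. In liver it was at 1.42, 2.32 and 5.35 FPKM with IgG and at 0.996, 0.732 and 1.11 FPKM with ICB. Of its 50-base words 98.6% occur in other genes, Gapdh among them, so its reads are uncertain.

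**Figure D5:**
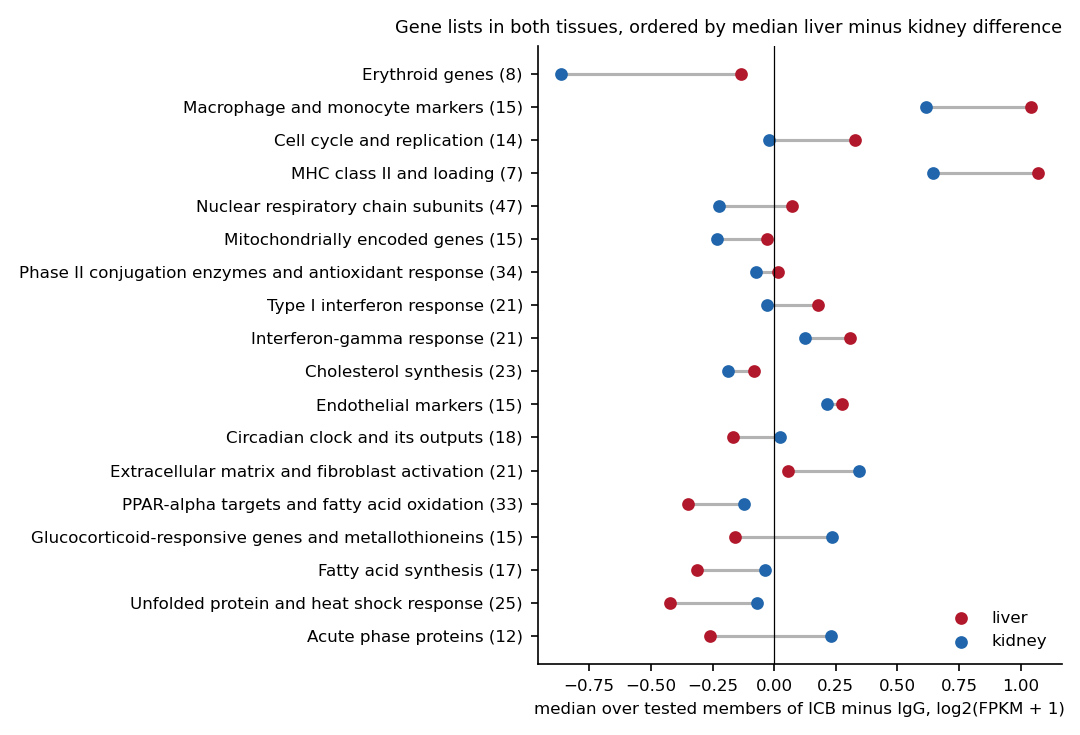
Median over the tested members of ICB minus IgG in log2(FPKM + 1) for 18 gene lists, in liver and in kidney, with the number of tested genes in brackets and the lists ordered by their median difference between tissues. Erythroid genes and macrophage markers stand at the top and chaperone and acute phase genes at the bottom.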

How the data were processed

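Total RNA from frozen liver and kidney was sequenced in bulk. The authors deposited a table of FPKM values for 18781 rows named by gene symbol, and the submitters' processing notes name HISAT2 2.1.0, the build mm10 and edgeR without a version. The counting tool, annotation and strand setting were not given in the sources used here, so that reads of overlapping antisense genes cannot be told apart. Rows without a name (15; at most 0.302% of the reads of a library) and 3 symbols on 2 rows each were left out. Whole reads were recovered from the FPKM in 18781 of 18781 rows (tolerance 0.001 of a read), giving 19012992 to 25235617 reads per library. Their number limits the precision, and PCR copies are not independent molecules.

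The 12 libraries were fitted with limma 3.58.1 (R 4.3.3; 4 group means, mean-variance trend, two-sided, 8 residual degrees of freedom) on log2(FPKM + 1), after the filter on FPKM given above (1 or more in 3 or more of 6 libraries, both tissues). The contrast was liver ICB minus IgG minus kidney ICB minus IgG, p-values were adjusted by Benjamini-Hochberg over the 10123 genes, and the threshold was 0.05. The fit was tested on simulated data. Positions are from GENCODE M21 (GRCm38, the build called mm10), and gene lengths are those the FPKM imply, equal to the GENCODE M21 exon union for 15256 of 18695 genes. Python 3.11.15, numpy 2.4.6 and pandas 2.3.3 were used.

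The comparison, the gene lists and the members named were chosen with earlier results of these data known. Named were the 10 genes with the smallest p for the difference in each direction (passing over predicted genes and small RNAs), passing genes, up to 4 members of each of 18 lists with the smallest p, the 6 genes of opposite and 4 of the same direction with the smallest larger p of the tissues, and Pdcd1, Ctla4, Cd274, Cd8a, Foxp3 and Cxcl9. Some genes that meet this rule are left unprinted. Slamf9, Cxcl16, Cyba and Metrnl, and the further list members Hspa5, Hsp90b1, Ddit3, Bag3, Hsph1, Cd74 and Mpeg1, were chosen after their values were seen.

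Replicate numbers from the sample titles are shared by liver and kidney for 3 pairs of libraries (IgG replicates 2, ICB replicates 1 and ICB replicates 2). Deviations from the group means correlated over genes at 0.48, 0.40 and 0.52 within these pairs. A pair without a shared number and of unlike treatment, liver ICB replicate 1 and kidney IgG replicate 2, correlated at 0.53. The other liver and kidney pairs without a shared number ran from -0.51 to 0.34, below the 3 pairs with one. The labels do not say whether the numbers pair the libraries, and the correlations alone do not settle it. The main fit did not use the numbers. The fit with the number as a block (correlation 0.5) was an alternative. Other alternatives were a pseudocount of 0.1, no filter, FPKM of at least 5, median-of-ratios, quantile and TPM scaling, no trend, array weights, a fit of all 36 libraries, limma-voom on the recovered reads and leaving out each library. Removal of the length trend of each library, and leaving out both libraries with the title number of liver ICB replicate 2, were added after the data were seen. Sequence copies were counted as shared 50-base words of GENCODE M21 transcripts.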

Additional observations from a re-analysis of the deposited data

Results flagged for a closer look

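A set of 7 named genes had ICB libraries wholly above the IgG libraries in 1 tissue and wholly below them in the other. No difference between the tissues passed for them. Higher in liver and lower in kidney were Thap11 (difference between tissues 0.56), Rmi1, a subunit of a DNA helicase complex (0.67), Ubald2 (0.67), the small nucleolar RNA Snora31 (2.29) and the processed pseudogene Gm5963 (1.73). Lower in liver and higher in kidney were Slc16a1 (-0.66) and Rnf170, a ubiquitin ligase of the ER (-0.41). The limma test of the difference gave an adjusted p of 0.939 for each of them. Rmi1 was at 2.08, 3.02 and 2.67 FPKM with IgG and 4.04, 3.79 and 3.53 FPKM with ICB in liver, and at 2.99, 2.89 and 2.94 against 2.54, 2.32 and 2.13 FPKM in kidney. Snora31 was at 3.65, 2.30 and 1.27 FPKM with IgG and 6.98, 9.40 and 4.55 FPKM with ICB in liver, and at 2.61, 5.26 and 3.50 against 1.40, 0.574 and 2.06 FPKM in kidney. Of the 50-base words of Ubald2 26.5% also occur in the predicted gene Gm7367, of those of Rmi1 23.8% in Gm20775, and of those of Gm5963 26.7% in Rps21. Over all 10123 genes 16 were apart in the former way (0.158%) and 7 in the latter (0.0691%). Of all genes 2.99% were apart and higher and 3.74% apart and lower with ICB in liver, and 3.22% and 5.29% in kidney. The smallest adjusted p over the alternatives for these 7 genes lay between 0.0587 and 0.12.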

How the results depend on the processing

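For the difference between tissues 0 genes passed with all 12 libraries, 0 to 6 when 1 library was left out (6 without liver ICB replicate 2: Slamf9, Cyba, Cxcl16, Metrnl and mt-Nd3 above 0 and Vnn1 below), 3 with array weights (Lpl, Vnn1 and mt-Nd3), and 3 without both libraries of that title number (Slamf9, Vnn1 and mt-Nd3). For liver the count was 0, and it was 0 to 298 when 1 library was left out (298 without liver ICB replicate 2), 335 with array weights, 224 without both libraries of that number, 20 in the fit of 36 libraries, 5 without the filter and 1 with limma-voom. For kidney the count was 2, and it was 0 to 2 when 1 library was left out, 18 with array weights, 1 with the FPKM minimum of 5, 1 with median-of-ratios scaling over 12 libraries and 0 with a pseudocount of 0.1, without the filter, with median-of-ratios or quantile scaling within tissue, in the fit of 36 libraries and with the length trend removed. The cause was not tested, except that some of these settings test fewer or more genes or libraries. With the title number as a replicate block 1 gene passed in kidney (Gm2606) and 0 for liver and for the difference, and the block changed no other call. Of the 2684 values of named genes under the alternatives 6 were counted as changed in sign. Without liver IgG replicate 1 these were H2-Aa (-0.0374; up to 0.71 with 1 library left out), H2-Eb1 (-0.12; up to 0.77), Ifit3b (-0.0163; up to 0.75) and Cdkn1a (0.36; down to -1.53). With array weights Cdkn1a was 0.22, and without liver ICB replicate 3 Cebpd was 0.0074 (down to -0.75). Outside this count, the difference between tissues also changed sign for Clec7a, Itgb2 and Gm27028, named for the same direction in both tissues. With limma-voom it was -0.36 for Clec7a (0.33 in the main fit) and -0.22 for Itgb2 (0.15 in the main fit). For Gm27028, a long non-coding RNA, it was 0.02 in the main fit and -0.32 with the length trend removed. Of 780 list medians 40 moved by more than the spread between replicates. The depth of 19012992 or more reads was not varied, and its part in what passes was not tested.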

Other observations

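Most genes of lymphocytes lay under the filter. None of the T cell and cytotoxic lists was tested, and of the B and plasma cell list Igkc, the kappa light chain constant region, and Ighm, the heavy chain of IgM, were. Igkc had a difference of 1.46 ± 0.36 in liver and 0.85 ± 0.36 in kidney, with groups that did not overlap in either tissue, and Ighm 0.36 and 0.17, and neither passed (limma adjusted p of 0.43 or more). Both were named after their values were seen. The other genes are given by their summed levels. The 15 B and plasma cell genes in the table summed to 13.4 to 24.4 FPKM in liver IgG and 30.4 to 67.4 FPKM in liver ICB libraries, and to 5.29 to 8.67 FPKM and 9.77 to 13.9 FPKM in kidney. The groups did not overlap in either tissue. The 18 T cell genes summed to 3.20 to 5.70 FPKM and 5.46 to 11.9 FPKM in liver, where the groups overlapped, and to 3.08 to 3.87 FPKM and 5.01 to 6.78 FPKM in kidney, where they did not. The 14 cytotoxic and NK cell genes summed to 4.03 to 5.83 FPKM and 4.32 to 10.3 FPKM in liver and to 1.56 to 1.89 FPKM and 2.55 to 3.38 FPKM in kidney.

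Kupffer cell genes (13 in the table) summed to 411.7 to 623.6 FPKM in liver IgG and 579.3 to 2034 FPKM in liver ICB libraries, and Clec4f, a defining marker of these cells, was at 64.9, 148.0 and 117.8 FPKM with IgG and 219.7, 94.9 and 267.7 FPKM with ICB. In liver ICB replicate 2 it thus lay among the controls. Clec4f was listed at 0 in every kidney library. Neutrophil genes overlapped between the groups in both tissues. Ucp1, the uncoupling protein of brown fat, was at 8.80, 1.84 and 1.23 FPKM with IgG and 39.1, 9.11 and 13.2 FPKM with ICB in kidney, and at most 0.0498 FPKM in liver.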
